A study of Mus musculus with 17 samples.

Results

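The transcripts of 35 DNA replication genes were followed in mouse CD8+ T cells that had or lacked Cblb. The genes were taken by symbol: 8 of origin licensing (Mcm2, Mcm3, Mcm4, Mcm5, Mcm6, Mcm7, Cdc6 and Cdt1), 6 of helicase activation (Mcm10, Cdc45, Gins1, Gins2, Gins3 and Gins4), 11 of the replication fork (Pcna, Rfc3, Rfc4, Rfc5, Pola1, Prim1, Pole, Pold1, Rpa2, Fen1 and Lig1), 5 of nucleotide supply (Rrm1, Rrm2, Tyms, Tk1 and Dut) and 5 of chromatin assembly and uracil removal (Ung, Uhrf1, Chaf1a, Chaf1b and Slbp). All 35 were found among the 53679 genes counted, and all 35 passed the filter on low counts, which left 16246 genes to test.

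Reads per gene were counted by RNA sequencing in 17 libraries. The mice were of the strain C57BL/6 and were either wild type (WT) or lacked Cblb (KO), the gene of Cbl-b, a ubiquitin ligase that is known to dampen T cell receptor signalling and to make T cells depend on CD28. CD8+ T cells of each genotype were left unstimulated or were stimulated for 12 h. Stimulated cells were given an antibody to CD3, the signalling part of the T cell receptor complex, alone or together with an antibody to the costimulatory receptor CD28. The pair is called both antibodies here. The sample titles give no hours for the unstimulated cells. Of the 6 groups, WT cells with both antibodies had 2 libraries (replicates 2 and 3, since replicate 1 was not analysed here), and the others had 3 each. The labels give no age, sex or tissue of origin, do not say which part of Cblb was removed or in which cells, and do not say that replicates came from separate animals. P-values therefore reflect the spread among these samples alone, and that spread may be technical.

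A chromosome is copied from origins that are licensed in G1 phase, when the ORC complex, Cdc6 and Cdt1 load the MCM helicase onto DNA. The helicase is switched on in S phase by Cdc45, the GINS complex and Mcm10, after which primase, polymerases, the sliding clamp and ligase copy both strands while ribonucleotide reductase and the thymidylate enzymes supply nucleotides. Resting T cells hold low amounts of much of this machinery, and its transcription by E2F factors is known to rise as stimulated T cells leave quiescence, ahead of the first division.

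Total counts per library ran from 16635826 to 38269033, apart from 160059285 in KO unstimulated replicate 2. The log2 fold change of Cblb in KO against WT cells was -1.16 ± 0.083, -1.21 ± 0.083 and -1.05 ± 0.09 in unstimulated, anti-CD3 and both-antibody cells (± is the standard error of edgeR's fit, here and below), with every KO library below every WT library of its state. The 6 CD8 T cell markers summed to between 1710 and 3356 CPM (counts divided by the TMM-adjusted size of their library and given per unit of sequencing depth) in every library. Summed markers of CD4 T, NK, myeloid, dendritic, erythroid and platelet cells reached at most 11.8 CPM in any library, and the platelet genes Pf4 and Ppbp had 0 counts throughout. The B cell list of 6 genes summed to between 158 and 435 CPM and consisted mostly of Ighm, while Pax5 reached at most 0.832 CPM. The sum of the list was lower in KO than in WT cells given anti-CD3 (196 to 222 against 235 to 267 CPM). Libraries also differed in a GC tilt, the difference in median log2 deviation between GC-rich genes (56% or more) and GC-poor genes (40% or less), which ran from -1.15 in KO both-antibody replicate 3 to 1.15 in KO unstimulated replicate 2. It lay between -0.41 and -0.11 in WT and between 0.10 and 0.24 in KO cells given anti-CD3. In bulk RNA, more cells that carry a transcript and more transcript per cell cannot be told apart.

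The replication genes spanned a wide range of abundance. Averaged over the 17 libraries and divided by exon length, the sliding clamp Pcna was the highest at 75.5 CPM per kilobase, followed by the helicase subunits Mcm4 (29.2) and Mcm6 (27.98). The lowest were Chaf1a at 0.555, the large subunit of chromatin assembly factor 1, and the initiation factor Mcm10 at 0.493 CPM per kilobase. Together the 35 genes took between 0.096% and 0.19% of a library's counts, lowest in WT unstimulated replicate 3 and highest in KO anti-CD3 replicate 3.

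KO cells given anti-CD3 held the highest levels. Their group mean ranked first among the 6 groups for 24 of the 35 genes, that of KO cells given both antibodies ranked second for 23, and that of WT cells given both antibodies ranked last for 20. A replication level was computed for each library as the median, over the 35 genes, of log2 CPM minus the gene's mean over all libraries. It was 0.37, 0.33 and 0.65 in KO cells given anti-CD3 and 0.069, 0.22 and 0.50 in KO cells given both antibodies, and these groups overlapped. Unstimulated KO libraries stood at -0.13, -0.049 and -0.029, above WT libraries given anti-CD3 at -0.16, -0.23 and -0.17. That order did not hold for the genes at or below the median GC content of the 35. Their level overlapped, at -0.19, -0.25 and -0.043 in unstimulated KO and -0.16, -0.18 and -0.13 in WT anti-CD3 libraries. Over all 35 genes, WT unstimulated libraries (-0.43, -0.17 and -0.33) overlapped both with WT libraries given anti-CD3 and with WT libraries given both antibodies (-0.37 and -0.33). KO anti-CD3 replicate 3 was above the gene's own mean for 35 of 35 genes and was the highest of all 17 libraries for 23, and KO both-antibody replicate 3 was the highest for 7.

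**Figure D1:**
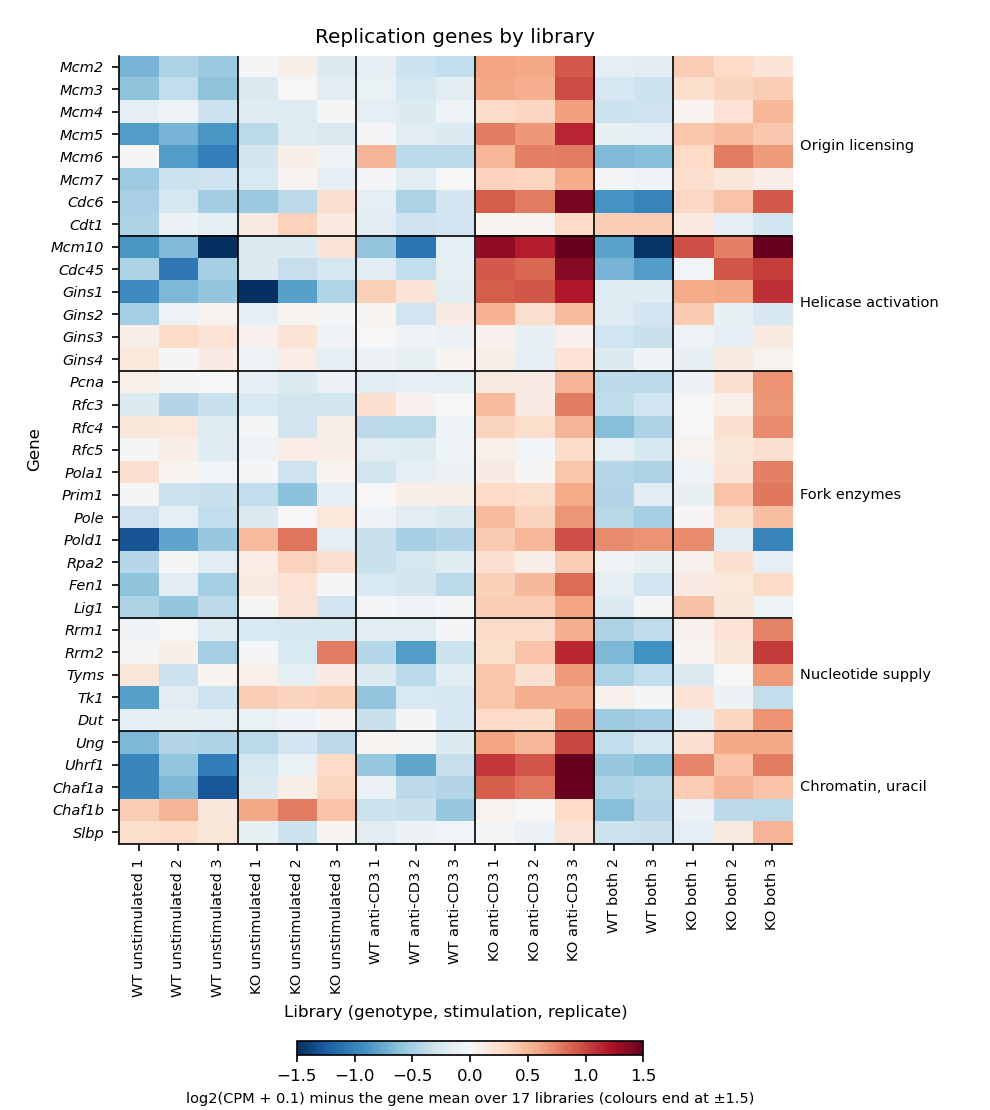
Colour gives log2(CPM + 0.1) of each replication gene (rows, by role) in each of the 17 libraries (columns, by group), minus the gene's mean over all libraries. The 3 KO anti-CD3 columns are red in nearly every row and replicate 3 is the darkest, while Cdt1 and Pold1 follow another pattern across the columns.

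**Figure D2:**
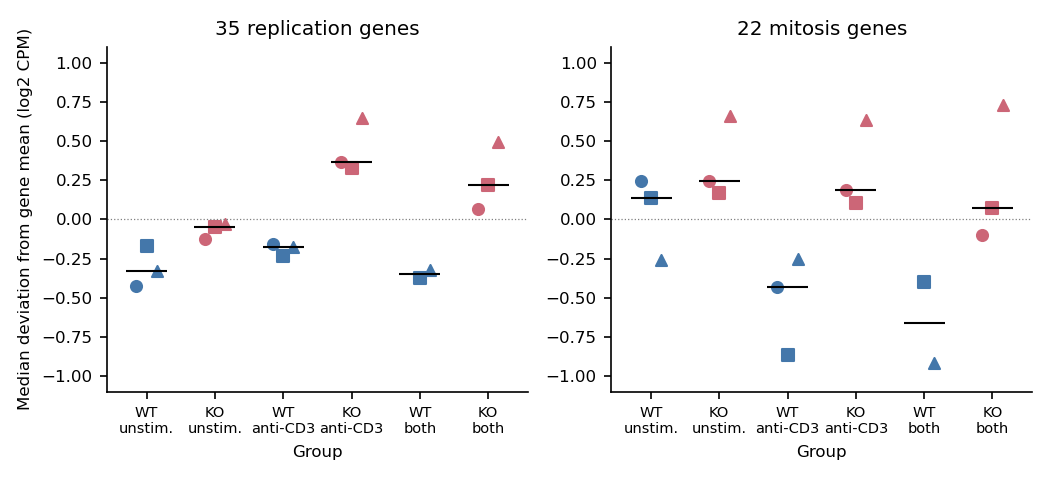
Each point is the median over 35 replication genes (left) or 22 mitosis genes (right) of log2 CPM minus the gene mean in 1 library, and bars are group medians. Circles, squares and triangles are replicates 1, 2 and 3. WT libraries given anti-CD3 lie below 0 in both panels and KO libraries given anti-CD3 above 0 in both.

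The promoters of these genes carried E2F-type letters more often than promoters at large. RefSeq windows of 300 bases (GRCm38.p6, 250 before to 50 after a transcript start) were given for 30 of the 35 genes, without Mcm4, Gins1, Gins2, Gins4 and Pole. The letters TTTCCCGC, TTTGGCGC, TTTCGCGC or TTTGCCGC, on either strand and with overlapping matches allowed, stood in a window of 12 of the 30 genes (40%), against 481 of the 10096 tested genes with a window (4.76%). CCAAT, on either strand, stood in 60% of the replication genes against 42.9%, and CACGTG in 13.3% against 11.8%. E2F-type letters stood in 8 of the 22 genes called higher in KO cells given anti-CD3 (36.4%) and in 4 of the 8 that were not called there (50%), so the letters were found in both sets. Stretches of 80 bases from within these windows are shown for 3 called genes (Mcm5, Cdc6 and Uhrf1) and for 3 not called (Mcm6, Pola1 and Gins3), with E2F-type letters in capitals. In Mcm5 the capitals hold 2 overlapping matches, 1 on each strand. The stretches lie at chr8:75109324-75109403 on the plus strand (Mcm5), chr11:98907977-98908056 on the plus strand (Cdc6), chr17:56304092-56304171 on the plus strand (Uhrf1), chr1:128359709-128359788 on the minus strand (Mcm6), chrX:93632250-93632329 on the minus strand (Pola1) and chr8:95633479-95633558 on the plus strand (Gins3), and are written 5′ to 3′ on the gene's strand.
Mcm5: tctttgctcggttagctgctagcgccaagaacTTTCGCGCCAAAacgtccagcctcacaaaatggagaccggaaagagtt
Cdc6: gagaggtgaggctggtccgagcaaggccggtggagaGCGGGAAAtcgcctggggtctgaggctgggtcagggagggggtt
Uhrf1: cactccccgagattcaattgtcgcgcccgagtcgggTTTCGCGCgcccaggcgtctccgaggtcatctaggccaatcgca
Mcm6: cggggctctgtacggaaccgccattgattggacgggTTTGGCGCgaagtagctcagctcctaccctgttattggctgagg
Pola1: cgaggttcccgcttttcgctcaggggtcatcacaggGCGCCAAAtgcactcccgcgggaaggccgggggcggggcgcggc
Gins3: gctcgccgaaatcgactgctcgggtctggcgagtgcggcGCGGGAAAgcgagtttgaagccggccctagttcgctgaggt

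With anti-CD3 alone, replication genes were higher in cells without Cblb. Of the 35 genes, 25 were called higher in KO than in WT cells and 0 lower, with a median log2 fold change of 0.65 (all tested genes 0.037). A gene was called when its p in edgeR's quasi-likelihood test, adjusted by Benjamini-Hochberg over all 16246 genes, was under 0.05. By the same test 15.3% of all tested genes were called, 10.5% higher and 4.8% lower. The fitted change was above 0 for 35 of 35 genes, against 53.9% of all tested genes. In 30 of the 35 genes every KO library lay above every WT library, against 27.4% of all tested genes. The exceptions were Mcm6, Gins3, Gins4, Rfc3 and Slbp. By role, 7 of 8 licensing, 3 of 6 helicase activation, 6 of 11 fork, 5 of 5 nucleotide supply and 4 of 5 chromatin and uracil genes were called higher. Leaving out KO anti-CD3 replicate 3, the library of highest replication level, left 14 genes called (5.27% of all tested genes), and leaving out WT anti-CD3 replicate 2 left 16 (8.34%). The small RNAs of 7SL and 7SK took a larger share of counts in KO (7.33% to 8.12%) than in WT libraries given anti-CD3 (4.63% to 6.49%), and the part of this in the difference was not tested. With a correction of each library for GC content, 27 of the 35 genes were called higher and 0 lower (10.6% and 11.5% of all tested genes).

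Among licensing genes, the helicase subunit Mcm5 (ENSMUSG00000005410, GRCm38 chromosome 8, 75109569 to 75128439, plus strand) had the smallest p. It stood at 64.2, 57.6 and 56.4 CPM in WT and 111, 102 and 144 CPM in KO libraries given anti-CD3 (replicates 1, 2 and 3), a log2 fold change of 1.00 ± 0.11 (adjusted p = 4.21e-05). The lowest KO library was far above the highest WT library. Mcm2 and Mcm3, neighbours of Mcm5 in the helicase ring, were higher by 0.98 and 0.89, and Mcm4 and Mcm7 by 0.56 and 0.48 (adjusted p 4.56e-05 to 0.00333 over these 4). Mcm6 was the licensing gene not called, with 172, 90.99 and 90.8 CPM in WT and 169.9, 203 and 206 CPM in KO libraries (0.72 ± 0.26, adjusted p = 0.0827). WT replicate 1 alone reached the KO range, and the same replicate number was also the highest of the WT unstimulated libraries (119, 67.6 and 59.4 CPM).

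Both helicase loaders were called higher. Cdc6, the ATPase that recruits the helicase to origins, rose from 3.19, 2.51 and 2.87 CPM in WT to 6.73, 6.13 and 9.62 CPM in KO libraries (1.41 ± 0.23, adjusted p = 0.000792). The groups did not overlap, and KO replicate 3 was the highest. Cdt1, which carries the helicase to the origin, was called at the edge of the threshold (0.38 ± 0.13, adjusted p = 0.0498) and was at 0.0009 with the correction for GC content (adjusted p = 0.998, range over all alternatives 0.00257 to 0.998).

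Helicase activation genes split into 3 that were higher and 3 that were not called. Mcm10, which helps start the loaded helicase (ENSMUSG00000026669, GRCm38 chromosome 2, 4989714 to 5012791, minus strand), had the largest difference of all 35 genes. It stood at 1.88, 1.29 and 2.62 CPM in WT and 7.41, 6.64 and 10.5 CPM in KO libraries (2.10 ± 0.31, adjusted p = 0.00032). Every KO library exceeded every WT library, and the gene stayed called under every alternative. Cdc45, a subunit of the active helicase, was higher by 1.32 ± 0.24 (adjusted p = 0.00164), and Gins1 by 0.91 ± 0.25 (adjusted p = 0.0218). Without KO anti-CD3 replicate 3 the adjusted p of Gins1 was 0.125 (range over its alternatives 0.000226 to 0.125).

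The other GINS subunits were not called. Gins3 had the largest p of all 35 genes, with 8.36, 7.98 and 7.87 CPM in WT and 8.72, 7.71 and 8.74 CPM in KO libraries (0.059 ± 0.13, adjusted p = 0.8), and the groups overlapped. Gins4 (0.13 ± 0.11, adjusted p = 0.458) also overlapped, while Gins2 (0.47 ± 0.18, adjusted p = 0.0855) had every KO library above every WT library without passing the threshold. Whether the subunits of the complex differed from each other in their change was not tested.

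At the fork, the enzymes that process and join Okazaki fragments were among those called. Fen1, the flap endonuclease, had the smallest p of the fork genes, with 19.7, 19.3 and 17.6 CPM in WT and 29.7, 32.7 and 41.7 CPM in KO libraries (0.88 ± 0.13, adjusted p = 0.000424), and the groups were far apart. Lig1, the ligase, was higher by 0.49 ± 0.14 (adjusted p = 0.0275), but its adjusted p was 0.0568 with the GC correction (range over its alternatives 0.000708 to 0.156). The polymerase subunits were called for Pole, of the leading strand enzyme, and for Pold1, of the lagging strand enzyme, but not for Pola1 (0.36 ± 0.17, adjusted p = 0.158), which extends the primer. Pole held 25.9, 23.8 and 23.1 CPM in WT and 37.3, 33.8 and 42.5 CPM in KO libraries (0.65 ± 0.12, adjusted p = 0.00227), without overlap. Pold1 was higher by 1.07 ± 0.34 (adjusted p = 0.0456), and by 0.52 with the GC correction.

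The primase subunit Prim1 had the largest p of the fork genes. Its libraries stood at 23.95, 25.3 and 25.2 CPM in WT and 29.2, 28.6 and 34.9 CPM in KO cells (0.32 ± 0.18, adjusted p = 0.239), so that KO libraries were all higher by a margin that did not pass the test. Of the clamp loader subunits, Rfc4 was called, with 10.2, 10.1 and 12.8 CPM in WT and 17.004, 16.1 and 19.2 CPM in KO libraries (0.66 ± 0.17, adjusted p = 0.0152). Rfc3 and Rfc5 were not, at 0.38 ± 0.17 and 0.25 ± 0.10 (adjusted p = 0.142 and 0.113). The clamp itself, Pcna, stood at 159, 164 and 160.4 CPM in WT and 195, 194 and 253 CPM in KO libraries, without overlap, and missed the threshold (0.41 ± 0.14, adjusted p = 0.0563). Rpa2, a subunit of the single-strand binding protein, was higher by 0.50 ± 0.12 (adjusted p = 0.00833). With the GC correction Pcna, Rfc3, Pola1 and Prim1 were called higher (adjusted p 0.00394 to 0.0369), and their ranges over all alternatives were 0.00174 to 0.315, 0.0217 to 0.562, 0.00358 to 0.517 and 0.0176 to 0.585 in that order.

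All 5 nucleotide supply genes were called higher. Tk1, thymidine kinase, had the smallest p, with 2.73, 3.54 and 3.53 CPM in WT and 5.62, 6.13 and 6.15 CPM in KO libraries (0.86 ± 0.19, adjusted p = 0.00547). Tyms, thymidylate synthase, had the largest, with 4.49, 3.902 and 4.62 CPM in WT and 6.98, 6.13 and 8.203 CPM in KO libraries (0.72 ± 0.21, adjusted p = 0.0253). In both genes the groups were separate, by a narrower margin in Tyms. The subunits of ribonucleotide reductase, which makes deoxyribonucleotides, were both higher: Rrm2 by 1.21 ± 0.31 and Rrm1 by 0.48 ± 0.13 (adjusted p = 0.0152 and 0.0196). Rrm1 held 49.3, 49.9 and 54.9 CPM in WT and 67.1, 67.5 and 80.96 CPM in KO libraries. Dut, which breaks down dUTP, was higher by 0.63 ± 0.16 (adjusted p = 0.0119). Leaving out KO anti-CD3 replicate 3 ended the call for Rrm1, Rrm2, Tyms and Dut (adjusted p 0.105 to 0.153) and kept that for Tk1.

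Uhrf1, which reads hemimethylated DNA behind the fork and recruits the maintenance methyltransferase (ENSMUSG00000001228, GRCm38 chromosome 17, 56303321 to 56323486, plus strand), had the smallest p of all 35 genes. Its libraries stood at 10.01, 8.68 and 11.7 CPM in WT and 31.2, 28.8 and 46.1 CPM in KO cells (1.81 ± 0.19, adjusted p = 2.85e-05), and the lowest KO library was well above the highest WT library. Chaf1a rose by 1.44 ± 0.20 (adjusted p = 0.000273), its partner in chromatin assembly factor 1, Chaf1b, by 0.54 ± 0.15 (adjusted p = 0.0209), and the uracil glycosylase Ung by 0.79 ± 0.14 (adjusted p = 0.00111). Slbp, which binds the stem loop of histone mRNAs, had the largest p of its role, with 67.02, 70.7 and 72.7 CPM in WT and 74.5, 70.8 and 86.8 CPM in KO libraries that overlapped (0.14 ± 0.13, adjusted p = 0.505).

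**Figure D3:**
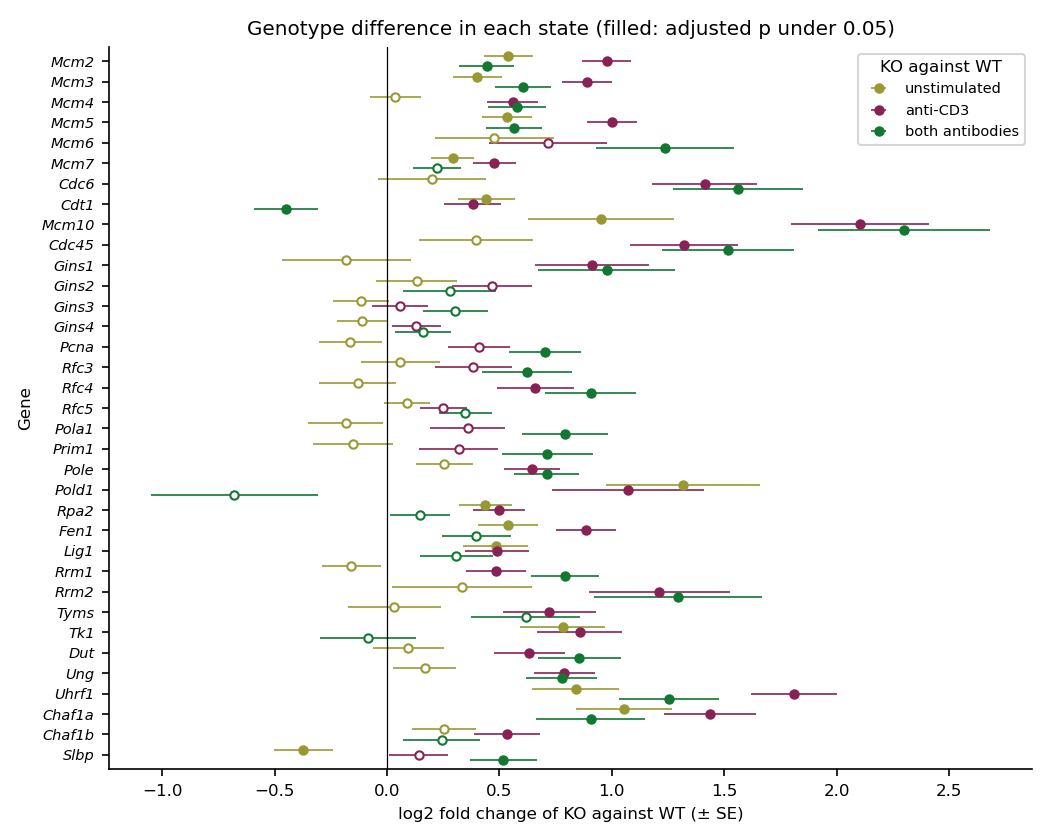
Points are log2 fold changes of KO against WT for each replication gene in unstimulated, anti-CD3 and both-antibody cells, with bars of 1 SE from edgeR, and are filled where the adjusted p was under 0.05. All 35 anti-CD3 points lie to the right of 0, Mcm10 and Uhrf1 farthest, while Cdt1 (called), Pold1 and Tk1 (both not called) lie to the left of 0 with both antibodies, where Cdt1 and Tk1 turn to above 0 with the correction for GC content.

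**Figure D4:**
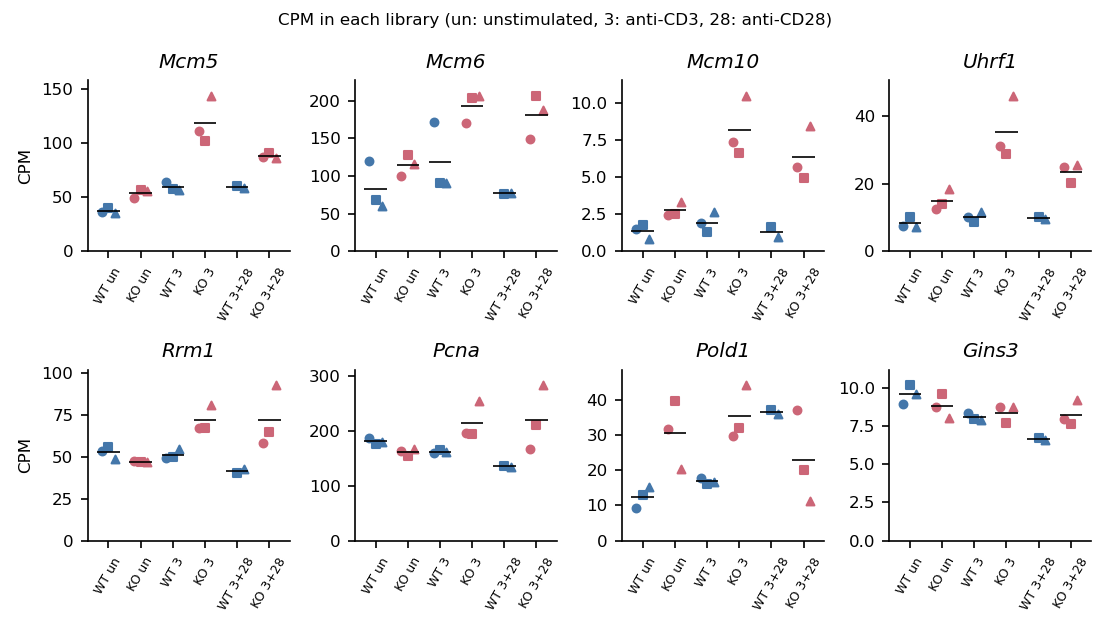
CPM of 8 replication genes in each library, WT in blue and KO in red, with circles, squares and triangles for replicates 1, 2 and 3 and bars for group means. In Mcm5, Mcm10 and Uhrf1 the KO libraries given anti-CD3 stand above all WT libraries, in Mcm6 WT replicate 1 does not go with the other WT libraries, and in Pold1 the 3 KO both-antibody libraries spread from 11.3 to 37.1 CPM.

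Part of the set was already higher in KO cells without stimulation. In unstimulated cells 13 of the 35 genes were called higher in KO and 1 lower (Slbp, -0.37 ± 0.13, adjusted p = 0.0458), with a median log2 fold change of 0.25 against -0.011 over all tested genes. In that comparison 25.4% of all tested genes were called, 15.3% higher and 10.1% lower. Licensing genes gave 5 of the 13: Mcm2, Mcm3, Mcm5, Mcm7 and Cdt1. The others were Mcm10, Pold1, Rpa2, Fen1, Lig1, Tk1, Uhrf1 and Chaf1a. Mcm5 stood at 36.3, 39.8 and 35.5 CPM in WT and 49.1, 56.7 and 55.9 CPM in KO libraries (0.54 ± 0.11, adjusted p = 0.00728), and Uhrf1 at 7.55, 9.997 and 7.24 CPM in WT and 12.5, 13.9 and 18.4 CPM in KO libraries (0.84 ± 0.19, adjusted p = 0.0098). Neither gene overlapped between the genotypes. Over the 35 genes, every KO library was above every WT library in 16 (21.9% of all tested genes) and below in 3 (19.5%). The GC tilt lay between 0.16 and 1.15 in KO and between -0.75 and -0.31 in WT unstimulated libraries, without overlap. The small RNAs of 7SL and 7SK took 7.83% to 13.1% of counts in these KO and 3.98% to 6.05% in these WT libraries. The part of the small RNAs in the difference was not tested. With the GC correction 5 genes were called higher and 0 lower (3.38% and 3.02% of all tested genes). Of the 5 licensing genes, Mcm2 and Mcm5 stayed called with it, Mcm3 was at 0.16 (adjusted p = 0.354), and Mcm7 and Cdt1 turned to -0.0053 and -0.1983 (adjusted p = 0.977 and 0.249). Without KO unstimulated replicate 2 there were 4 calls (2.15% of all tested genes), and without WT unstimulated replicate 1 there were 3 (3.78%).

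With both antibodies, 22 of the 35 genes were called higher in KO than in WT cells and 1 lower (Cdt1), with a median log2 fold change of 0.62 against 0.00024 over all tested genes. In that comparison 16.1% of all tested genes were called, 9.84% higher and 6.3% lower. Every KO library was above both WT libraries in 28 of the 35 (24.6% of all tested genes) and below both in 1 (24.4%). The GC tilt was 0.36, -0.34 and -1.15 in KO and 0.57 and 0.52 in WT libraries given both antibodies, without overlap. The small RNAs of 7SL and 7SK took 2.65% to 9.45% of counts in these KO and 9.94% to 11.4% in these WT libraries. The part of the small RNAs in the difference was not tested. Mcm10 had the smallest p, with 1.61 and 0.979 CPM in WT and 5.71, 4.92 and 8.497 CPM in KO libraries (2.30 ± 0.38, adjusted p = 0.00314), and every KO library was far above both WT libraries. Cdc6 held 1.87 and 1.71 CPM in WT and 4.38, 4.76 and 6.74 CPM in KO libraries (1.56 ± 0.29, adjusted p = 0.00425). Both genes act at the start of replication. Rrm1 stood at 40.3 and 42.7 CPM in WT and 58.3, 64.7 and 92.9 CPM in KO libraries (0.79 ± 0.15, adjusted p = 0.00506). Pole was at 20.04 and 18.99 CPM in WT and 27.1, 32.1 and 36.7 CPM in KO libraries (0.71 ± 0.14, adjusted p = 0.00646). Uhrf1 was at 10.1 and 9.595 CPM in WT and 24.8, 20.1 and 25.5 CPM in KO libraries (1.25 ± 0.22, adjusted p = 0.00367). In each of these 5 genes the KO libraries were separate from the WT libraries, and KO replicate 3 was the highest.

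The WT group behind these both-antibody values held 2 libraries. In an edgeR fit of the 5 both-antibody libraries alone, 0 of the 35 genes and 0.0% of all tested genes were called, although 25 of the 35 had an unadjusted p under 0.05. Leaving out WT both-antibody replicate 2 left 1 gene called (0.235% of all tested genes) and leaving out replicate 3 left 0 (0.0649%), with 25 and 23 at an unadjusted p under 0.05, in edgeR fits that take the lone WT library to vary like the other groups. Without KO both-antibody replicate 2 or 3 the counts were 15 and 14 (6.78% and 5.11% of all tested genes). Mcm6, not called with anti-CD3 alone, was higher here, with 76.5 and 77.3 CPM in WT and 149, 207 and 188 CPM in KO libraries (1.24 ± 0.31, adjusted p = 0.019), where WT replicate 1 was not part of the comparison. Pcna, Rfc3, Pola1, Prim1 and Slbp were also called here and not with anti-CD3 alone. Other genes went the opposite way, among them Pold1 and Tk1, which were called higher with anti-CD3 alone and not called here. The GC content of Pcna, Rfc3, Pola1, Prim1 and Slbp lay between 41.5% and 45.3%. With the GC correction Pcna, Rfc3, Pola1 and Prim1 were called higher with anti-CD3 alone. Of the nucleotide supply genes 3 of 5 were called higher here, against 5 of 5 with anti-CD3 alone. The difference between these states passed edgeR's test for 0 of the 35 genes (6 at an unadjusted p under 0.05, against 28.6% of all tested genes).

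Cdt1 was the 1 replication gene called lower with both antibodies, and the fitted values of Pold1 and Tk1 were below 0 without passing the test. Pold1 stood at 37.1 and 36.1 CPM in WT and 37.1, 20.2 and 11.3 CPM in KO libraries (-0.68 ± 0.37, adjusted p = 0.217), so that KO replicate 1 was level with WT and replicates 2 and 3 were below it. Cdt1 held 36.3 and 36.4 CPM in WT and 31.3, 25.5 and 23.03 CPM in KO libraries (-0.45 ± 0.14, adjusted p = 0.0402). Tk1 held 4.36 and 4.11 CPM in WT and 4.83, 3.92 and 3.22 CPM in KO libraries (-0.085 ± 0.22, adjusted p = 0.82), which overlapped. Pold1 (61.0% GC in its longest transcript) and Cdt1 (57.8%) were the most GC-rich of the 35 genes, whose median was 49.3%. Over the 17 libraries their log2 CPM had a Pearson correlation with the GC tilt of 0.88 and 0.89, that of Tk1 was 0.69, and that of Slbp (44.4% GC) was -0.80. With the GC correction the differences of Pold1, Cdt1 and Tk1 were -0.05, 0.068 and 0.0056 (adjusted p = 0.845, 0.735 and 0.99), and 25 of the 35 genes were called higher and 0 lower (10.1% and 7.52% of all tested genes).

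**Figure D5:**
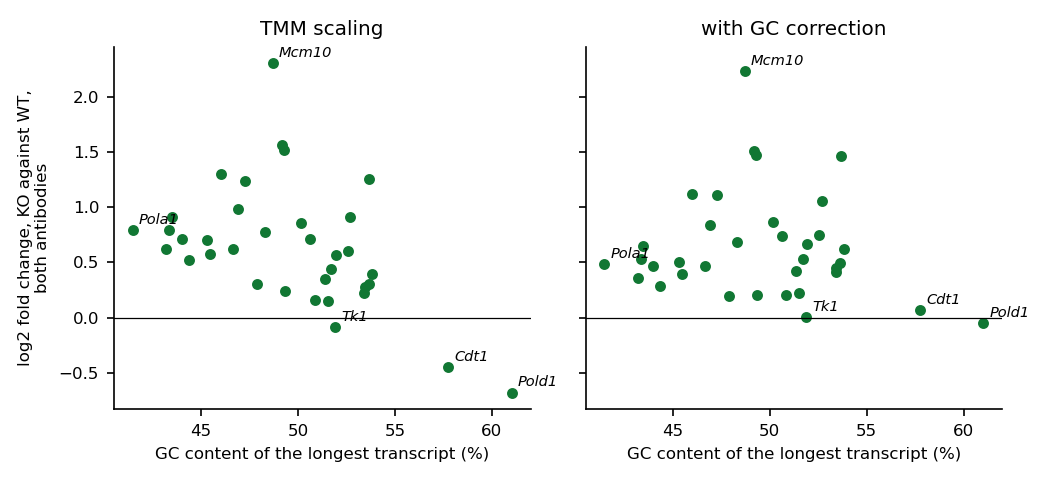
Each point is 1 of the 35 replication genes, with the GC content of its longest transcript on the x axis and its log2 fold change of KO against WT with both antibodies on the y axis, before (left) and after (right) the correction for GC content. Pold1 and Cdt1 lie lowest on the left and near 0 on the right, while Mcm10 is above 2 in both.

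The response to anti-CD3 was counted within each genotype. In WT cells 8 of the 35 were called higher than in unstimulated cells and 1 lower, with a median log2 fold change of 0.11 (24.4% of all tested genes called, 11.3% higher and 13.1% lower). In KO cells 22 were called higher and 1 lower, with a median of 0.48 (36.9% called, 19.6% higher and 17.3% lower). The largest increases in KO cells were those of Gins1 (2.02), Mcm10 (1.60), Cdc45 (1.37), Cdc6 (1.32) and Uhrf1 (1.26), with adjusted p from 1.79e-05 to 0.000259. The 8 of WT cells were Mcm2, Mcm3, Mcm5, Mcm7, Gins1, Lig1, Ung and Chaf1a, with log2 fold changes from 0.31 (Mcm2) to 0.92 (Gins1). Gins1 rose from 1.199, 1.48 and 1.58 to 3.13, 2.82 and 2.13 CPM in WT cells and from 0.618, 1.34 and 1.75 to 4.65, 4.73 and 5.72 CPM in KO cells (0.92 ± 0.27 and 2.02 ± 0.27, adjusted p = 0.0196 and 1.79e-05). Chaf1b fell in both genotypes, from 12.7, 13.99 and 11.03 to 7.85, 7.78 and 6.61 CPM in WT and from 14.6, 16.99 and 13.3 to 10.2, 9.85 and 12.1 CPM in KO cells (-0.77 ± 0.15 and -0.49 ± 0.14, adjusted p = 0.00089 and 0.0135). Chaf1b and Chaf1a, partners in the same complex, thus moved in opposite directions with anti-CD3 in both genotypes (0.65 and 1.03 for Chaf1a). In WT cells the count of 9 fell to 2 without WT anti-CD3 replicate 1 (18.7% of all tested genes), to 3 without WT unstimulated replicate 1 (19.2%), and to 4 and 5 without WT anti-CD3 replicates 2 and 3 (18.2% and 19.6%).

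With both antibodies against unstimulated cells, 5 genes of WT cells were called higher (Mcm2, Mcm5, Mcm7, Cdt1 and Pold1) and 6 lower (Gins3, Pcna, Rfc4, Pola1, Chaf1b and Slbp), with a median of -0.098 (34.1% of all tested genes called, 17.8% higher and 16.3% lower). These counts were near the shares over all tested genes. After the GC correction 3 were called higher and 5 lower (32.5% of all tested genes called): Mcm2, Mcm5 and Pold1 stayed higher, Mcm7 was at 0.12 (adjusted p = 0.266) and Cdt1 turned to -0.0169 (adjusted p = 0.924). In KO cells 16 were called higher and 1 lower (Chaf1b), with a median of 0.36 (45.4% called, 23% higher and 22.5% lower). With the GC correction the median in KO cells was 0.32. Pcna fell in WT cells from 187, 176 and 179 to 136 and 135 CPM (-0.42 ± 0.16, adjusted p = 0.0498) and rose in KO cells from 163, 154 and 167 to 167, 211 and 283 CPM (0.45 ± 0.14, adjusted p = 0.0151), where replicate 1 did not exceed all unstimulated libraries. The WT libraries given both antibodies were below all other libraries for this gene. Over the 17 libraries Pcna had a Pearson correlation with the GC tilt of -0.56. The tilt was 0.36, -0.34 and -1.15 in KO both-antibody replicates 1, 2 and 3. Slbp went from 90.04, 91.4 and 85.5 to 60.1 and 59.7 CPM in WT cells (-0.57 ± 0.15, adjusted p = 0.00766), while the change in KO cells did not pass (0.32 ± 0.13, adjusted p = 0.0563). Leaving out WT both-antibody replicate 2 or 3 left 4 genes called in WT cells (17.1% and 16% of all tested genes), and leaving out WT unstimulated replicate 1 left 6 (24.8%).

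Adding anti-CD28 to anti-CD3 gave no called replication gene in either genotype in edgeR's single fit of all 6 groups, which called 0 of all 16246 genes (0%). Some alternative edgeR fits did call replication genes here, as given in the closing section. In WT cells 5 of the 35 had an unadjusted p under 0.05 (21.6% of all tested genes), with a median log2 fold change of -0.20, and in KO cells 11 had (8.99%), with a median of -0.25. Other tools also differed: DESeq2 called 1 gene in WT and 0 in KO cells (3% and 0% of all tested genes), and limma voom called 12 in WT (2 higher, 10 lower) and 20 in KO cells (1 higher, 19 lower), against 37.3% and 34.2% of all tested genes. Mcm5 held 64.2, 57.6 and 56.4 CPM with anti-CD3 and 59.97 and 58.4 CPM with both antibodies in WT cells (-0.0048 ± 0.12, adjusted p = 0.986). In KO cells it held 111, 102 and 144 and 86.5, 90.2 and 86.03 CPM (-0.44 ± 0.11, adjusted p = 0.547), where all both-antibody libraries were below all anti-CD3 libraries.

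KO cells given anti-CD3 alone also stood above WT cells that had received both antibodies. In that comparison 27 of the 35 genes were called higher and 0 lower, with a median of 0.79 against -0.0065 over all tested genes (11.5% of all tested genes called, 8.96% higher). Mcm10, Cdc6, Cdc45 and Uhrf1 had the largest differences, at 2.67 ± 0.38, 2.07 ± 0.29, 1.88 ± 0.29 and 1.85 ± 0.22 (adjusted p 0.000218 to 0.000789). Not called were Cdt1, Gins3, Gins4, Rfc5, Pold1, Rpa2, Tk1 and Slbp. Without KO anti-CD3 replicate 3 the count was 15 (4.19% of all tested genes), and leaving out either of the WT both-antibody libraries left 12 (1.9% and 1.97%). This comparison shares its KO libraries with the comparison of genotypes in anti-CD3 and its WT libraries with that in both antibodies.

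Whether the genotypes differed in their response was tested with interaction terms. For anti-CD3, 0 of the 35 genes were called by edgeR, as were 0.0554% of all tested genes, although 33 of the 35 fitted terms were above 0 (52.5% of all tested genes), with a median of 0.47 against 0.024 over all tested genes, and 18 had an unadjusted p under 0.05 (14.8% of all tested genes). Cdc6 had the smallest p (1.21 ± 0.33, adjusted p = 0.164; unadjusted p = 0.00204). DESeq2 called 0 (1.33% of all tested genes), limma voom called 13 higher (5.65% of all tested genes called), and edgeR with the GC correction called 3 higher (2.23%). Within the other roles the smallest p belonged to Uhrf1 (0.97 ± 0.27, adjusted p = 0.164), Rrm1 (0.64 ± 0.19, adjusted p = 0.176), Rfc4 (0.79 ± 0.24, adjusted p = 0.197) and Gins1 (1.09 ± 0.38, adjusted p = 0.222). Cdc6 went from 2.496, 2.93 and 2.43 to 3.19, 2.51 and 2.87 CPM with anti-CD3 in WT cells and from 2.36, 2.66 and 4.204 to 6.73, 6.13 and 9.62 CPM in KO cells. Its WT libraries overlapped between the states and its KO libraries did not.

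For both antibodies the interaction was called for 16 of the 35 genes, 13 with a larger response in KO cells and 3 with a smaller one (37.5% of all tested genes, 18.3% higher and 19.2% lower). The 3 were Cdt1, Pold1 and Tk1. Over both directions the count of 16 was near the share over all tested genes. With the GC correction 10 genes were called higher and 0 lower (8.61% and 7% of all tested genes), and without WT both-antibody replicate 2 or 3 the count called was 8 or 9 (22.4% and 23.7% of all tested genes). Rrm1 had the smallest p, with 53.8, 55.7 and 48.7 CPM unstimulated and 40.3 and 42.7 CPM with both antibodies in WT cells and 47.4, 47.2 and 47.1 and 58.3, 64.7 and 92.9 CPM in KO cells (0.95 ± 0.20, adjusted p = 0.00413; 0.44 with the GC correction, adjusted p = 0.0396). Against unstimulated cells it rose in KO cells (0.61 ± 0.13, adjusted p = 0.00144), while the change in WT cells did not pass the test (-0.34 ± 0.15, adjusted p = 0.0856). For the effect of adding anti-CD28, 0 of the 35 genes differed between genotypes by edgeR (0.00616% of all tested genes called), while DESeq2 called 4 and limma voom 14 (14.6% and 47.3% of all tested genes).

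Genes of the replication machinery outside the 35 were counted as well. Of 60 further replication genes, 21 were called higher and 3 lower in KO than in WT cells given anti-CD3, with a median log2 fold change of 0.35. Over all tested genes 10.5% were called higher and 4.8% lower in that comparison. The count of lower calls was near that share. The 15 genes of origin recognition and firing gave 4 higher (Orc1 1.72, Gmnn 0.86, Recql4 1.12 and Orc6 0.64) and 1 lower (Donson -0.29). The 25 further fork genes gave 7 higher and 0 lower, led by Pold2 (1.13), Dna2 (1.34), Exo1 (1.22) and Clspn (1.11). The 12 further nucleotide supply genes gave 7 higher, among them Umps (0.84), Shmt2 (1.29), Cad (1.11) and Shmt1 (0.82), and 2 lower, Dck (-0.38) and Samhd1 (-0.29). Of 8 further chromatin genes Hells (1.12), Dtl (1.47) and Asf1b (0.64) were higher. Orc1, the licensing ATPase of the origin recognition complex, went from 1.46, 1.22 and 0.849 CPM in unstimulated WT to 2.28, 1.91 and 3.36 CPM in WT libraries given anti-CD3 (1.06 ± 0.31, adjusted p = 0.0189) and stood at 7.07, 6.58 and 11.03 CPM in KO libraries given anti-CD3, above every WT library. Umps, which makes the pyrimidine UMP, was the 1 gene of the 60 with a called anti-CD3 interaction (0.80 ± 0.14, adjusted p = 0.0441).

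Of 25 regulators of the step from G1 to S phase, 10 were called higher and 3 lower in KO than in WT cells with anti-CD3. Over all tested genes these shares were 10.5% and 4.8%. Cdk6, Myc, Ccnd2 (cyclin D2) and Tfdp1, the E2F partner, were higher by 1.79, 1.37, 0.79 and 0.99 (adjusted p 8.17e-06 to 0.000151). The lower ones were the pocket protein genes Rbl2 (-0.44) and Rbl1 (-0.40) and the inhibitor gene Cdkn1b (-0.40). Cdk6 and Ccnd2 had called anti-CD3 interactions (1.72 ± 0.22, adjusted p = 0.00887; 0.85 ± 0.14, adjusted p = 0.0367). Of these regulators 3 were called higher and 2 lower with anti-CD3 in WT cells (11.3% and 13.1% of all tested genes). In KO cells 14 were called higher and 3 lower (19.6% and 17.3%). The WT count of higher calls was near the share over all tested genes.

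Genes of mitosis, which cells express as they near division, were also counted. In WT cells given anti-CD3 0 of 22 were called higher than in unstimulated cells and 5 lower by edgeR (11.3% and 13.1% of all tested genes). Of the 22, 9 had an unadjusted p under 0.05, against 35.4% of all tested genes, and the median was -0.57. In KO cells 0 were called higher and 2 lower (19.6% and 17.3% of all tested genes), with a median of 0.11. At an unadjusted p under 0.05 there were 4, against 45.5% of all tested genes. Between genotypes given anti-CD3, 10 of 22 were called higher in KO and 0 lower (10.5% and 4.8% of all tested genes), with a median of 0.89. Kif23, a kinesin of cell division, fell in both genotypes (-1.62 in WT and -1.49 in KO), and Mki67, Cenpf and Nusap1 in WT cells (-1.19, -1.29 and -0.78). Top2a, Cdk1, Ube2c and Cdc20 were higher in KO than in WT cells given anti-CD3 (1.24, 1.43, 2.07 and 0.79). The median deviation of the mitosis genes was 0.24, 0.14 and -0.26 in WT unstimulated and -0.43, -0.87 and -0.25 in WT anti-CD3 libraries. It was 0.25, 0.17 and 0.66 in KO unstimulated and 0.19, 0.10 and 0.63 in KO anti-CD3 libraries, and these KO groups overlapped. KO anti-CD3 replicate 3, the highest library for replication genes, was also the highest of its group for these.

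Within the 35 genes, members followed the others to very different degrees. Over the 17 libraries, which share depth and GC tilt among their differences, the Pearson correlation of a gene's log2 CPM with the median level of the other 34 was 0.96 for Pole, 0.96 for Cdc6, 0.95 for Uhrf1 and 0.95 for Mcm4. It was 0.0054 for Chaf1b, 0.091 for Cdt1, 0.13 for Gins3, 0.24 for Pold1, 0.33 for Gins4 and 0.34 for Slbp. Among genes outside the list with a mean log2 CPM of at least 2, the pattern most like the replication level over the 17 libraries was that of Impdh2 (r = 0.99), which makes guanine nucleotides, followed by Dctd, Slc25a5, Snhg15, Apex1, Txnrd1, G3bp1 and Atp5b (r from 0.98 to 0.97). Impdh2 stood at 122, 146 and 138 CPM in WT unstimulated, 154, 150.1 and 146 CPM in WT anti-CD3 and 220.5, 212 and 284 CPM in KO anti-CD3 libraries. Its KO libraries given anti-CD3 were above all WT libraries of either state.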

How the data were processed

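RNA was sequenced from 17 libraries of CD8+ T cells in 6 groups. Per the labels' protocols, libraries were made from ribosomal RNA-depleted total RNA with a stranded kit and read as paired ends. The authors deposited whole-number read counts per gene and library. The submitters' processing notes name STAR 2.5.2, RSEM 1.3.0 and the mouse build GRCm38 (mm10); annotation release, strand setting and any rounding of RSEM's estimates were not given in the sources used here. No 2 replicates agreed within sampling noise (their chi-square ran from 4.03 to 629 per gene).

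Gene names came with the files, and 53565 of 53679 identifiers matched GENCODE M21 (GRCm38), which gave positions, exon lengths and GC content. Counts were tested with edgeR 4.0.16 in R 4.3.3 (filterByExpr, TMM scaling, quasi-likelihood test, common biological coefficient of variation 0.153), with all 6 groups in a single fit, 13 comparisons and Benjamini-Hochberg adjustment over 16246 genes at a threshold of 0.05. Levels are CPM, counts scaled to a common TMM-adjusted library size, and log2 CPM in correlations used a prior count of 2. Alternatives were DESeq2 1.42.0, limma 3.58.1 (voom with quality weights), other scaling and filters, the compared groups alone, the replicate number as a block, each library left out, the libraries of lowest and highest GC tilt left out together, and a GC correction with offsets from a loess (span 0.3) of log2 CPM on GC content per library. The fitting steps were checked on simulated data for KO against WT with anti-CD3. Of genes set to change 1.5-fold 28.9% were called in the right direction, and of those set to change 2-fold 63.3%. A gene that was not called may therefore still differ. Figures were drawn with matplotlib 3.10.9.

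The 35 genes, the further lists and the tests were chosen with earlier results of these data known. Values in every library are given for the genes of smallest and largest p within each role for KO against WT with anti-CD3, for those of smallest p with both antibodies and in the anti-CD3 interaction, and for others that a sentence turns on, which were picked after their values were seen. Of each further list, up to 4 genes per direction are named by smallest p. Reads shared by overlapping or near-identical genes could not be told apart, so values of such genes are uncertain. Total counts set the precision: KO unstimulated replicate 2 was read deepest, and genes near 1 CPM rest on few reads in the libraries of lowest total.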

Additional observations from a re-analysis of the deposited data

Results flagged for a closer look

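The response to both antibodies differed between genotypes, by an interaction term in edgeR's quasi-likelihood test, for 16 of the 35 genes, against 37.5% of all tested genes. Over both directions the count was near that share. By direction, 18.3% of all tested genes were called with a larger and 19.2% with a smaller response in KO cells. Values are the log2 response of KO cells minus that of WT cells. It was larger in KO cells for the licensing genes Mcm4 (0.54) and Cdc6 (1.36), the helicase genes Mcm10 (1.35), Cdc45 (1.12) and Gins1 (1.16), the fork genes Pcna (0.87), Rfc4 (1.04), Pola1 (0.98) and Prim1 (0.86), the nucleotide genes Rrm1 (0.95) and Dut (0.76), and Ung (0.61) and Slbp (0.89). It was smaller in KO cells for Cdt1 (-0.89), Pold1 (-1.99) and Tk1 (-0.87). The libraries at both ends of the GC tilt, KO unstimulated replicate 2 (1.15) and KO both-antibody replicate 3 (-1.15), enter this term, and with the GC correction Pold1, Cdt1 and Tk1 were at -0.46, 0.27 and -0.58 (adjusted p = 0.0849, 0.247 and 0.143) and Cdc6 and Mcm10 at 1.35 and 1.29 (adjusted p = 0.0158 and 0.072). No group had the 4 libraries needed to look for an outlying library.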

How the results depend on the processing

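In KO against WT cells given anti-CD3, 14 of the 25 calls held under every alternative, as did 3 of 14 calls in unstimulated and 0 of 23 in both-antibody cells, where WT has 2 libraries. With the GC correction the counts called were 5 (unstimulated, KO against WT), 3 (anti-CD3 interaction) and 10 (both-antibody interaction). Fits of the compared groups alone called 0 genes for KO against WT with both antibodies, 11 for both antibodies against unstimulated in KO cells, 10 for adding anti-CD28 in WT cells and 2 for the anti-CD3 interaction. By limma voom the counts were 26 for both antibodies against unstimulated in KO cells, 12 and 20 for adding anti-CD28 in WT and KO cells, 13 for the anti-CD3 and 14 for the anti-CD28 interaction. DESeq2 called 1 for adding anti-CD28 in WT cells and 4 for its interaction, and without a filter that interaction gave 1. Without both libraries of extreme GC tilt, counts were 9 (both antibodies against unstimulated, KO; median 0.2161), 3 (adding anti-CD28, WT), 1 (anti-CD3 interaction), 7 (both-antibody interaction) and 1 (anti-CD28 interaction), and the median for KO against WT with both antibodies was 0.4755. The cause of these differences was not tested.

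The replicate block left the count at 24 for KO against WT with anti-CD3, 23 with both antibodies and 14 unstimulated, and moved no count by over 1.5 times. The replicate block with GC correction gave 3 for KO against WT unstimulated, 15 for anti-CD3 against unstimulated in WT cells and 5 for the anti-CD3 interaction. Same-numbered libraries of different groups had residual correlations from -0.494 to 0.632 (median 0.021) and differently numbered ones from -0.683 to 0.621, so the numbers were not taken to pair samples.

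Leaving out each library in turn, counts called ran from 3 to 14 (KO against WT, unstimulated), 14 to 27 (anti-CD3), 0 to 26 (both antibodies), 2 to 11 and 17 to 24 (anti-CD3 against unstimulated in WT and KO), 4 to 13 and 12 to 23 (both antibodies against unstimulated in WT and KO), 0 to 2 in each genotype (adding anti-CD28), 12 to 28 (KO anti-CD3 against WT both antibodies), and 0 to 5, 8 to 18 and 0 to 7 (anti-CD3, both-antibody and anti-CD28 interactions). The 5 and the 7 came without KO both-antibody replicates 3 and 1. Medians ran from 0.6562 to 0.8396 for KO anti-CD3 against WT both antibodies and from 0.3183 to 0.5213 for the anti-CD3 interaction, lowest in both without KO anti-CD3 replicate 3, and from -0.1355 to 0.0012 for both antibodies against unstimulated in WT cells.

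Signs reversed for 3 genes. With the GC correction, and with the replicate block added to it, Cdt1 was at -0.1983 and -0.2021 for KO against WT unstimulated, 0.0679 and 0.1028 with both antibodies, -0.0169 and -0.0574 for both antibodies against unstimulated in WT cells and 0.2661 and 0.3048 in the both-antibody interaction. With anti-CD3 it was at -0.0033 with the block and GC correction. Mcm7 unstimulated was at -0.0053 and -0.0064. Tk1 with both antibodies was at 0.0056 and 0.0483, ran from -0.2426 to 0.0457 when each library was left out (highest without KO both-antibody replicate 3) and was at 0.0376 without both libraries of extreme tilt. Depth limits genes near 1 CPM, such as Mcm10 and Gins1 in WT cells.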
